A study of Homo sapiens with 5 samples.

Results

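The tripartite motif (TRIM) family is a large family of proteins, most of them RING-type ubiquitin ligases, and 76 of its genes are described here by the peaks that ChIP-seq of the transcription factors IRF3 and Smad3 placed inside them or within 10 kb. The members are the protein-coding genes in the RefSeq annotation of GRCh38 whose symbol is TRIM followed by a digit, with TRIM25 left out, and they make 76 of 20033 protein-coding genes. Of these, 6 are interferon-induced members with known roles in antiviral defence (TRIM5, TRIM14, TRIM21, TRIM22, TRIM38 and TRIM56), and the other 70 form the rest of the family. The rule itself uses symbols and the annotation only.

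IRF3 is the transcription factor that sensors of viral RNA and DNA switch on, and polyI:C is a synthetic double-stranded RNA that stands in for such RNA. Activated IRF3 enters the nucleus and binds interferon response elements upstream of type I interferon and antiviral genes. Smad3 is the factor that carries the signal of TGF-beta to chromatin, together with Smad4. TRIM proteins sit on both sides of these pathways: some are induced by interferon and restrict viruses, others add ubiquitin to the sensors, adaptors or kinases above IRF3, and others act on Smad proteins or on chromatin.

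The cells were BT549, a human cell line from a breast cancer of the basal-like type, infected with lentiviral vectors so that they stably carried either constitutively active Smad3 (caSmad3) or an HA control vector. There were 5 libraries, each the only 1 of its group. IRF3 was precipitated from caSmad3 cells and from HA cells, both transfected with polyI:C and without added TGF-beta. Smad3 was precipitated from caSmad3 cells transfected with polyI:C without TGF-beta, from HA cells transfected with polyI:C and given TGF-beta at 1 ng/ml for 1.5 h, and from mock-transfected HA cells given the same TGF-beta. Between caSmad3 and HA cells with polyI:C, Smad3 peaks therefore differ both by the transgene and by TGF-beta, and against mock-transfected HA cells they differ by polyI:C as well. These cannot be told apart. Neither an IRF3 library of mock-transfected cells nor a Smad3 library of HA cells without TGF-beta was analysed here.

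The deposited lists give the position of each peak and no height, score or read count. They hold 8067 IRF3 peaks of caSmad3 cells, 4125 IRF3 peaks of HA cells, 6041 Smad3 peaks of caSmad3 cells, 786 Smad3 peaks of HA cells with polyI:C and 353 Smad3 peaks of mock-transfected HA cells. Depth is unknown, so a longer list may not be read as more binding, and a gene without a peak may not be read as unbound. With 1 library per group no test between conditions was possible, and counts of members are set beside the share of all protein-coding genes under the same rule. Intervals are 95% Clopper-Pearson intervals and cover counting error only.

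The promoters that the results turn on are shown first, as 250 bases upstream of a start site, written from the farthest base to the base next to the start on the gene's own strand. They come from the RefSeq promoter table of GRCh38.p14, which matched 61 of the 76 members and 5 of the 6 antiviral members, TRIM22 being the other. Capitals mark every match, on either strand, to the IRF core AANNGAAA or to GAAANNGAA, which are the first letters of the paired motif in an interferon response element. The matches may overlap each other, and an unbroken run of capitals can hold several. The first 5 are the antiviral members, and TRIM69 is an interferon-induced member near a peak of HA cells alone.
TRIM5, chr11:5685075-5685324, minus strand: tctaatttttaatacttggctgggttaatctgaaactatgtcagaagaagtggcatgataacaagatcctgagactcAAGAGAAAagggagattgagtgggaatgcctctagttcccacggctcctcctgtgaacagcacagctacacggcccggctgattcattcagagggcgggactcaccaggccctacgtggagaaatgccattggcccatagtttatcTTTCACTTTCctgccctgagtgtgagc
TRIM14, chr9:98119223-98119472, minus strand: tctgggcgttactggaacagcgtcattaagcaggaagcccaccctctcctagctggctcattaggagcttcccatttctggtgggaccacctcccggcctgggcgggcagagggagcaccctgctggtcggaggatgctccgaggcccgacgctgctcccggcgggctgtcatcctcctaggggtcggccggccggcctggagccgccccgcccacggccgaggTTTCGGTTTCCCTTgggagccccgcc
TRIM21, chr11:4393703-4393952, minus strand: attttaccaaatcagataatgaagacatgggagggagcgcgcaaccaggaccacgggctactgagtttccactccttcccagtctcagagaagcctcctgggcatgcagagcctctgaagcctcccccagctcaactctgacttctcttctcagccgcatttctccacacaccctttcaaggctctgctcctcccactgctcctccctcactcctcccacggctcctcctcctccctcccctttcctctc
TRIM38, chr6:25962552-25962801, plus strand: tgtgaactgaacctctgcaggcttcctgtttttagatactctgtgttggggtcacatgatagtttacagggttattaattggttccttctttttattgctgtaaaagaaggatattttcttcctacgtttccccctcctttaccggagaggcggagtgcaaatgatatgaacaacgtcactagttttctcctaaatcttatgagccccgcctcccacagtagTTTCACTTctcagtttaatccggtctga
TRIM56, chr7:101085231-101085480, plus strand: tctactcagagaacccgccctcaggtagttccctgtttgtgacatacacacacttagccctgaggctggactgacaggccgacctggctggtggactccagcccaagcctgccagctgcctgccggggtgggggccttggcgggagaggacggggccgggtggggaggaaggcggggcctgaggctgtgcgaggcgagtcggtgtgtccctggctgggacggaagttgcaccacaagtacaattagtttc
TRIM69, chr15:44736278-44736527, plus strand: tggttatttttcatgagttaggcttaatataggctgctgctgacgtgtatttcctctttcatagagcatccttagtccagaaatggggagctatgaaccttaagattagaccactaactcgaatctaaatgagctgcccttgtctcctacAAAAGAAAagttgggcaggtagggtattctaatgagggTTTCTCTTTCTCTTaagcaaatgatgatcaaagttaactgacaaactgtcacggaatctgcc
The next 3 are the members with IRF3 peaks of both caSmad3 and HA cells in this window. TRIM66 has several start sites, and the one with the peaks is shown.
TRIM26, chr6:30213407-30213656, minus strand: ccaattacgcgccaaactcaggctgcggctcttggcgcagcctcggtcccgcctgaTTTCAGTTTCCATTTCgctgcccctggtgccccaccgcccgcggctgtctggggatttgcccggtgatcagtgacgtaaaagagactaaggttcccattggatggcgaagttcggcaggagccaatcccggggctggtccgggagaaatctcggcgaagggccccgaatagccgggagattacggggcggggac
TRIM41, chr5:181223031-181223280, plus strand: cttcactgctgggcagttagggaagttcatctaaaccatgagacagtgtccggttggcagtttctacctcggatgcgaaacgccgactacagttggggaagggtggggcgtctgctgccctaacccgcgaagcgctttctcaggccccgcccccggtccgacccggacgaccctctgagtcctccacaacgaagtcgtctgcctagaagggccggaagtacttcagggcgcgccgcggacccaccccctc
TRIM66, chr11:8682666-8682915, minus strand: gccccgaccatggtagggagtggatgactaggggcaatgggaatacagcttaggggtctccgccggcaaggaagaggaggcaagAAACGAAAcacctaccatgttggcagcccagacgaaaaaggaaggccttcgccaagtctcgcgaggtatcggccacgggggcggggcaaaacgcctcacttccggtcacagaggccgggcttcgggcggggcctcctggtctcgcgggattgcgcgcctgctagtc

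Of all 76 members, an IRF3 peak lay near 29 in caSmad3 cells, against 15 in HA cells. These are 38.2% (27.2% to 50.0%) and 19.7% (11.5% to 30.5%) of the family, beside 40.5% and 23.5% of all protein-coding genes. A Smad3 peak lay at 11 members in caSmad3 cells, or 14.5% (7.45% to 24.4%), beside 19.9% of all genes. In HA cells given TGF-beta, 0 members had a Smad3 peak after polyI:C, and 3 of 76 would be 3.95%, beside 2.53% of all genes. After mock transfection 1 member did, TRIM55, beside 0.918% of all genes. In each of the 5 libraries the share of all genes lay inside the interval of the family's share or below the limit of a count of 0, and a difference between the family and all genes was not detectable with this 10 kb window at this number of genes. Peaks of any library lay near 33 members, beside 46.9% of all genes, and 43 members had none. There were 8 members with peaks in 3 libraries, TRIM9, TRIM14, TRIM16, TRIM41, TRIM45, TRIM52, TRIM55 and TRIM66, and no member had more, beside 11.2% of all genes with 3 or more.

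**Figure D1:**
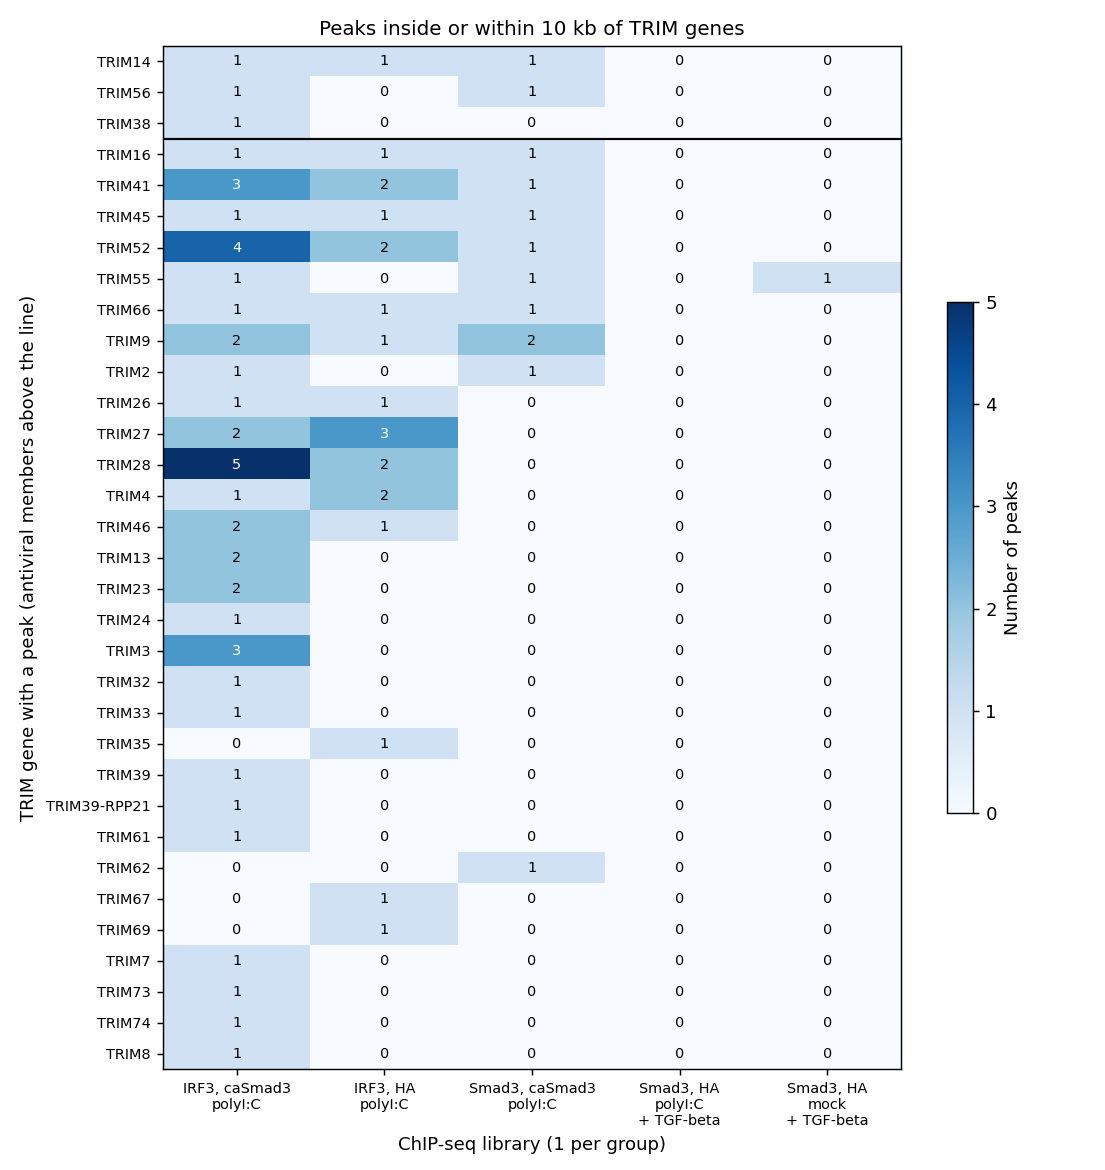
Number of peaks inside or within 10 kb of each of the 33 TRIM genes that had any (rows), in each of the 5 libraries (columns), printed in each cell and shown by colour. TRIM14, TRIM56 and TRIM38 are the 3 antiviral members with a peak, above the line; TRIM28 has the most IRF3 peaks in caSmad3 cells, 5, and the column of Smad3 in HA cells with polyI:C holds 0 throughout.

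IRF3 peaks of both caSmad3 and HA cells lay near 12 members, or 15.8%, beside 22.0% of all genes. Those of caSmad3 cells alone lay near 17 members, or 22.4%, beside 18.5%, and those of HA cells alone near 3 members, or 3.95%, beside 1.51%. IRF3 and Smad3 peaks of caSmad3 cells lay near 10 members, or 13.2%, beside 14.8% of all genes. Only TRIM62, or 1.32% of members (0.0333% to 7.11%), had a Smad3 peak there without an IRF3 peak in those cells. Of 11 members with Smad3 nearby in that library, 10 thus had IRF3 nearby as well, beside 2974 of 3986 over the whole annotation. Whether the family differs from all genes in this was not tested.

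Among the antiviral members, 3 of 6 had an IRF3 peak in caSmad3 cells (TRIM14, TRIM38 and TRIM56), against 1 of 6 in HA cells (TRIM14). In caSmad3 cells 2 of 6 had a Smad3 peak (TRIM14 and TRIM56), and 0 of 6 had one in either Smad3 library of HA cells. The intervals of these shares are 11.8% to 88.2% for IRF3 in caSmad3 cells, 0.421% to 64.1% for IRF3 in HA cells and 4.33% to 77.7% for Smad3 in caSmad3 cells. They hold the shares of all genes, 40.5%, 23.5% and 19.9%, so no difference of the antiviral members from all genes was detectable. TRIM5, TRIM21 and TRIM22 had no peak in any library. None of the antiviral members had an IRF3 peak in the 250 bases before its own start, TRIM22 not being in the promoter table. The other 70 members had an IRF3 peak in 26 cases in caSmad3 cells and in 14 cases in HA cells, or 37.1% and 20.0%, and 9 of them had a Smad3 peak in caSmad3 cells, or 12.9%.

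TRIM14 is a member without a RING domain that acts as an adaptor of MAVS, the mitochondrial adaptor of RNA sensing. It was the antiviral member with peaks in 3 libraries, and all 3 lay at 1 place. The IRF3 peak of caSmad3 cells was 322 bases wide (chr9:98056659-98056980), that of HA cells 343 bases (chr9:98056647-98056989), and the Smad3 peak of caSmad3 cells 142 bases (chr9:98056746-98056887). The place is inside the annotated span of TRIM14, but 62242, 62233 and 62335 bases from its start site. Both IRF3 peaks ran over the start site of NANS, the gene of sialic acid synthase, and the Smad3 peak lay 14 bases from that start site. The TRIM14 promoter printed above holds GAAANNGAA and 2 AANNGAAA matches, and no peak of any library covered it.

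TRIM38, which tempers signalling through the TAB proteins and modifies RNA and DNA sensors, had an IRF3 peak of 99 bases in caSmad3 cells (chr6:25992778-25992876), the narrowest width in the lists. It lay 1547 bases above the gene in coordinates and 29976 bases from its start site. The nearest IRF3 peak of HA cells lay 26334 bases from TRIM38, at the histone gene H1-1.

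TRIM56 adds ubiquitin chains in the STING, cGAS and TLR3 pathways. In caSmad3 cells it had an IRF3 peak of 117 bases (chr7:101100335-101100451) that lay wholly inside a Smad3 peak of 478 bases (chr7:101100052-101100529), the widest Smad3 peak near any member. The pair lay 2368 and 2085 bases above the gene in coordinates and 14854 and 14571 bases from its start site. In HA cells the nearest IRF3 peak lay 119397 bases from TRIM56, and no Smad3 peak of HA cells was closer than 15426847 bases.

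The other antiviral members lie together on the short arm of chromosome 11, TRIM21 apart from TRIM5 and TRIM22. TRIM5 blocks retroviral capsids, TRIM22 is an interferon-induced restriction factor, and TRIM21 is the cytosolic receptor of antibody-coated viruses. The nearest IRF3 peak to TRIM21 lay 587261 bases away in caSmad3 cells and 2289492 bases away in HA cells. For TRIM5 these distances were 789139 and 998120 bases, and for TRIM22 they were 763350 and 972331 bases. All 3 genes lie in 1 stretch without an IRF3 peak, 2.68 Mb long in caSmad3 cells and 6.07 Mb long in HA cells. The stretch of caSmad3 cells holds 88 protein-coding genes, of which 55 have olfactory receptor symbols and 7 are members. The stretch of HA cells holds 166 protein-coding genes, with the same number of olfactory receptor symbols and 8 members. The TRIM5 promoter holds GAAANNGAA and the TRIM21 and TRIM56 promoters hold neither IRF motif, and none of the 3 windows had a peak.

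**Figure D2:**
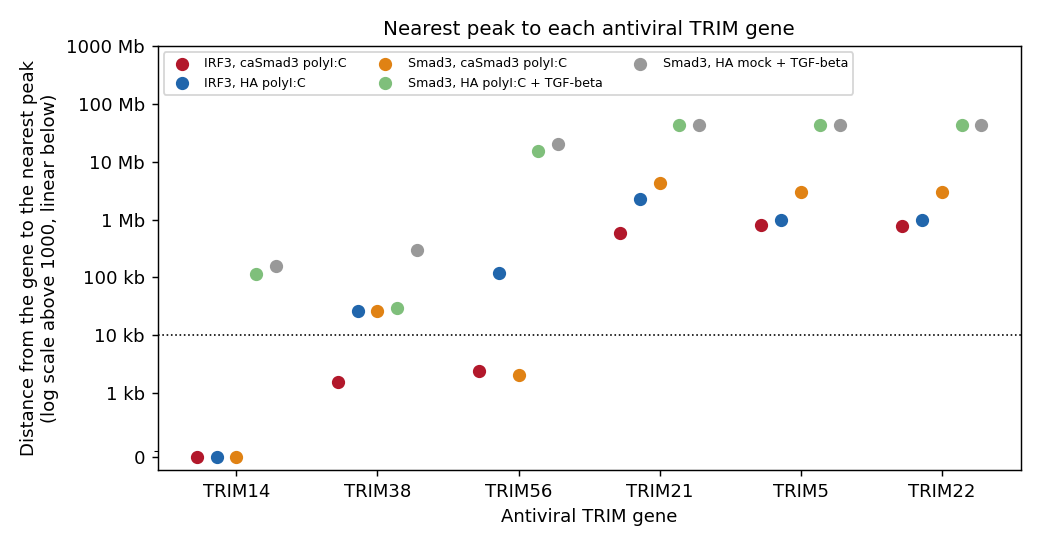
Distance from each of the 6 antiviral TRIM genes to the nearest peak of each of the 5 libraries, 1 point per library, on an axis that is logarithmic above 1000 bases and linear below; the dotted line is the 10 kb limit. TRIM14 has 3 points at 0, TRIM38 has 1 point and TRIM56 has 2 points under the line, and the nearest point of TRIM21, TRIM5 and TRIM22 is at 587261 bases.

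Antiviral effectors outside the family give a comparison. Of 30 such genes, among them the MX, OAS and IFIT genes, 3 had an IRF3 peak in caSmad3 cells (ISG15, SAMHD1 and ZC3HAV1), against 16 in HA cells, or 10.0% against 53.3%, beside 40.5% and 23.5% of all genes. The 3 genes were among the 16, so 13 had an IRF3 peak in HA cells alone, or 43.3% (25.5% to 62.6%), beside 1.51% of all genes. In caSmad3 cells alone 0 did (up to 11.6%), beside 18.5%. The intervals take the genes as independent, but some are neighbours, such as the IFIT genes. Whether 1 peak counted for several of them was not tested. Of the 6 antiviral TRIM genes, 0 had an IRF3 peak in HA cells alone (up to 45.9%). In caSmad3 cells alone 2 did, or 33.3% (4.33% to 77.7%). The first interval holds the 43.3% of the effectors and the second the 18.5% of all genes, so no such difference was detectable. Of 16 signalling genes on which TRIM ligases are known to act, 6 had an IRF3 peak in caSmad3 cells (MAVS, TBK1, IRF3, IKBKG, MAP3K7 and SMAD4), against 8 in HA cells (RIGI, IFIH1, MAVS, CGAS, IRF3, IRF7, MAP3K7 and TAB1). The shares were 37.5% (15.2% to 64.6%) and 50.0% (24.7% to 75.3%), beside 40.5% and 23.5% of all genes. The RNA sensors RIGI and IFIH1, the DNA sensor CGAS, IRF7 and TAB1 had an IRF3 peak in HA cells alone, or 31.2%, beside 1.51% of all genes. TBK1, IKBKG and SMAD4 had an IRF3 peak in caSmad3 cells alone, or 18.8%, beside 18.5%. Both shares rest on 16 genes chosen with earlier results known. Smad3 peaks lay near 2 of the signalling genes in caSmad3 cells, MAVS and IKBKG, and near 0 of the 30 effectors. These are 12.5% (1.55% to 38.3%) and 0% (up to 11.6%), beside 19.9% of all genes. In HA cells with polyI:C and TGF-beta Smad3 peaks lay near MAVS and near 2 of the 30 effectors, ISG15 and ISG20. These are 6.25% (0.158% to 30.2%) and 6.67% (0.818% to 22.1%), beside 2.53% of all genes. After mock transfection 0 genes of either list had a Smad3 peak, beside 0.918% of all genes.

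**Figure D3:**
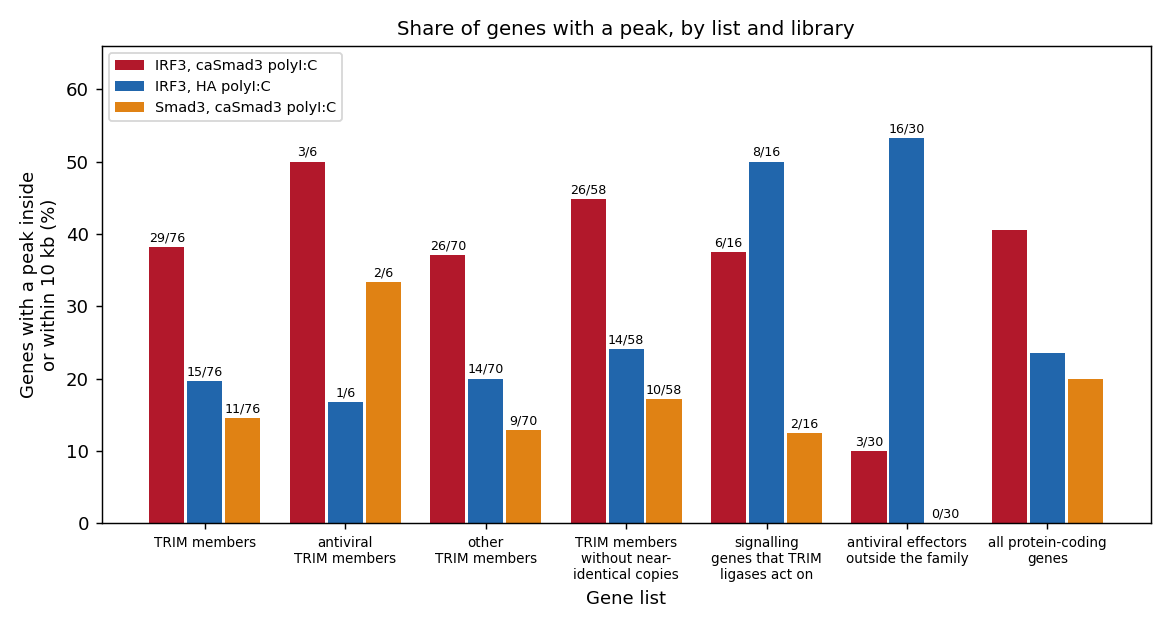
Share of genes with a peak inside or within 10 kb (percent, axis from 0) for each gene list, with 1 bar each for IRF3 in caSmad3 cells, IRF3 in HA cells and Smad3 in caSmad3 cells, and the count of genes above each bar other than those of all genes. The bars of the 76 members follow the order of those of all genes, with IRF3 in caSmad3 cells highest; in the 30 effectors IRF3 in HA cells is highest, with 16 genes.

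Seen by place rather than by gene, 43 different IRF3 peaks of caSmad3 cells lay near members. Of these, 24 were within 1 kb of an end of a member, 10 were within 1 kb of an end of another gene only, and 9 were elsewhere. The 24 include 4 that were also within 1 kb of an end of another gene. Of 20 IRF3 peaks of HA cells, 11 lay at a member's end, 4 at another gene's end and 5 elsewhere, and 1 of the 11 was also near another gene's end. Of 12 Smad3 peaks of caSmad3 cells, 3 lay at a member's end, 1 at another gene's end and 8 elsewhere. Counted over ends of any protein-coding gene, 79.1%, 75.0% and 33.3% of these peaks lay within 1 kb of one, for IRF3 in caSmad3 cells, IRF3 in HA cells and Smad3 in caSmad3 cells. Over all peaks of the same libraries the shares were 77.4%, 75.6% and 33.7%. The median width near members was 183 bases for IRF3 in caSmad3 cells, 169.5 bases for IRF3 in HA cells and 176.5 bases for Smad3 in caSmad3 cells. Over all peaks of the same libraries it was 215, 185 and 178 bases.

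**Figure D4:**
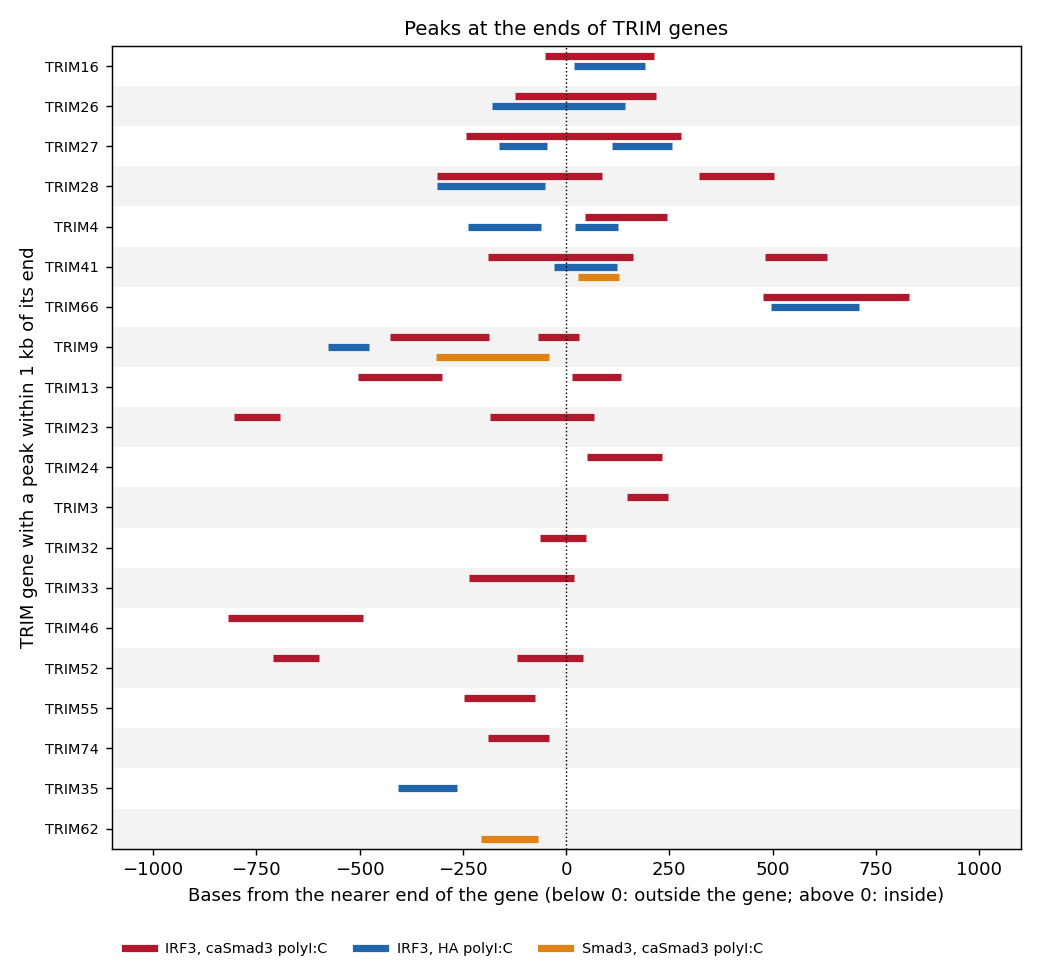
Peaks within 1 kb of an end of a TRIM gene, drawn to scale as bars from their first to their last base, measured from the nearer end of the gene (below 0 outside the gene, above 0 inside it), with IRF3 of caSmad3 cells above, IRF3 of HA cells in the middle and Smad3 of caSmad3 cells below. For TRIM26, TRIM41 and TRIM66 the IRF3 bars of both cells overlap, and for TRIM9 the 3 IRF3 bars do not.

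IRF3 peaks of caSmad3 and HA cells overlapped by at least 1 base near 9 of the 12 members that had both, or 75.0%, beside 96.3% of the 4414 genes that had both. The exceptions were TRIM45, TRIM46 and TRIM9. Of the 43 IRF3 peaks of caSmad3 cells, 12 met a peak of HA cells, or 27.9% (15.3% to 43.7%), beside 40.9% of all such peaks. Of the 20 IRF3 peaks of HA cells, 13 met a peak of caSmad3 cells, or 65.0% (40.8% to 84.6%), beside 82.8%. In 12 of the 13 overlapping pairs the peak of caSmad3 cells was the wider, the exception being the pair at TRIM14, and the median difference in width was 95 bases. Over all 3495 overlapping pairs, 81.9% were wider in caSmad3 cells and the median difference was 107 bases.

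TRIM26 is a ligase that has been described to act on nuclear IRF3 itself. Its IRF3 peaks ran over its start site in both cells, 341 bases wide in caSmad3 cells (chr6:30213189-30213529) and 323 bases wide in HA cells (chr6:30213263-30213585). It was the only member with an IRF3 peak in its promoter window and GAAANNGAA in that window. The motifs, the run of capitals in the TRIM26 line above, span positions 30213585 to 30213600. The peak of caSmad3 cells ended before them, at 30213529, and that of HA cells ended at their first base. No Smad3 peak lay within 10 kb.

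TRIM41, a ligase of influenza nucleoprotein, had peaks of both factors over or beside its start. The IRF3 peak of caSmad3 cells was 350 bases wide (chr5:181223093-181223442), that of HA cells 154 bases (chr5:181223251-181223404) and the Smad3 peak of caSmad3 cells 99 bases (chr5:181223310-181223408). The peak of HA cells and the Smad3 peak both lay inside the IRF3 peak of caSmad3 cells, which was followed by another of 152 bases there. TRIM7, TRIM41 and TRIM52 are neighbours on chromosome 5, and it was the only run of members within 200 kb of each other in which every gene had a peak. TRIM52, a RING protein with a long acidic loop, had 4 IRF3 peaks in caSmad3 cells, against 2 in HA cells. At its start it had IRF3 peaks in caSmad3 cells, 159 and 111 bases wide, and none in HA cells. Below the gene, peaks of 301 bases for IRF3 in caSmad3 cells, 176 bases for IRF3 in HA cells and 101 bases for Smad3 in caSmad3 cells lay over each other. A further IRF3 peak, 320 bases in caSmad3 cells and 278 bases in HA cells, counted for both TRIM41 and TRIM52 and lay over an end of RACK1, the gene of a ribosomal scaffold protein between them.

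TRIM27, a nuclear ligase first known as the RET finger protein, had the widest IRF3 peak near any member, 522 bases in caSmad3 cells (chr6:28923707-28924228). In HA cells the same place held 2 peaks, of 146 and 118 bases. Below the gene lay another IRF3 peak, 144 bases wide in caSmad3 cells and 110 bases wide in HA cells, at distances of 7338 and 7384 bases. TRIM4, a ligase of RIG-I, had an IRF3 peak of 201 bases in caSmad3 cells and 2 in HA cells, of 106 and 178 bases, all within 1 kb of its upper end.

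The members with a PHD finger and a bromodomain read and repress chromatin, and all 4 of them (TRIM24, TRIM28, TRIM33 and TRIM66) had an IRF3 peak in caSmad3 cells, against 2 in HA cells (TRIM28 and TRIM66). With 4 genes the intervals, 39.8% or more and 6.76% to 93.2%, hold the shares of all genes, 40.5% and 23.5%. TRIM28, the corepressor of KRAB zinc finger proteins, had an IRF3 peak at its lower end of 401 bases in caSmad3 cells (chr19:58543751-58544151) and of 263 bases in HA cells (chr19:58543751-58544013). The IRF3 peak of 437 bases counted for TRIM28 in caSmad3 cells lay 778 bases from an end of UBE2M, not at TRIM28. TRIM66, a member described in the testis, had IRF3 peaks over 1 of its start sites, 354 bases in caSmad3 cells (chr11:8682401-8682754) and 214 bases in HA cells (chr11:8682523-8682736). These also lay 38 and 56 bases from an end of RPL27A, a ribosomal protein gene, so the gene they belong to cannot be told apart. TRIM33, which binds Smad2 and Smad3 and adds ubiquitin to Smad4, had an IRF3 peak of 256 bases over its start in caSmad3 cells (chr1:114511184-114511439), none in HA cells, and no Smad3 peak in any library. TRIM24, a coregulator of retinoic acid receptors, had 1 IRF3 peak of 181 bases in caSmad3 cells and none in HA cells.

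The members with NHL repeats had IRF3 peaks in caSmad3 cells alone, in 3 of 4 genes. The interval, 19.4% to 99.4%, lies just above the share of all genes with IRF3 in caSmad3 cells alone, 18.5%, and rests on 4 genes chosen with results known. It is also the interval of 1 of several domain classes that were counted. The 3 were TRIM2, TRIM3 and TRIM32, with TRIM71 as the other. With a window of 1 kb TRIM2 dropped out, and with the wider 50% of peaks TRIM3 and TRIM32 did. TRIM3 had a peak of 99 bases at its own end, and its other peaks lay over ends of ARFIP2 and TIMM10B. TRIM32 had one of 110 bases at its own end, which lies inside ASTN2 and over a start site of ASTN2 as well, so the gene it belongs to cannot be told apart. That of TRIM2 lay at MND1. TRIM2, a ligase of neurofilament light chain, also had a Smad3 peak of 173 bases inside the gene in caSmad3 cells. TRIM23, which carries an ARF domain and acts on NEMO, had IRF3 peaks of 251 and 114 bases in caSmad3 cells and none in HA cells, the narrower of them over an end of TRAPPC13. TRIM13, anchored in the endoplasmic reticulum, had IRF3 peaks of 205 and 120 bases in caSmad3 cells and none in HA cells. TRIM8, which acts on the kinase TAK1, had an IRF3 peak of 431 bases in caSmad3 cells, 2005 bases below the gene. TRIM61 had one of 373 bases inside the gene in caSmad3 cells, and neither gene had a peak in HA cells.

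The COS and fibronectin class includes members that act in neurons. Of its 4 genes, 2 had an IRF3 peak in caSmad3 cells, against 3 of 4 in HA cells. The intervals, 6.76% to 93.2% and 19.4% to 99.4%, hold the shares of all genes. TRIM9, a ligase of the netrin pathway, had IRF3 peaks of 99 and 241 bases at its start in caSmad3 cells and of 99 bases in HA cells. The peak of HA cells lay 50 bases beyond the nearer peak of caSmad3 cells. A Smad3 peak of caSmad3 cells, 275 bases wide (chr14:51095146-51095420), overlapped both IRF3 peaks of those cells, and another of 208 bases lay inside the gene. TRIM46, an organiser of the axon, had 2 IRF3 peaks in caSmad3 cells, against 1 in HA cells, 783 or more bases apart, and each was also within 1 kb of an end of another gene. TRIM45, the member with a filamin domain, had IRF3 peaks of 131 bases in caSmad3 cells (chr1:117121809-117121939) and 113 bases in HA cells (chr1:117121650-117121762). They lay inside the gene 46 bases apart, and a Smad3 peak of 183 bases in caSmad3 cells (chr1:117121667-117121849) overlapped both.

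The 3 members with an IRF3 peak in HA cells alone were TRIM35, TRIM67 and TRIM69. TRIM69, which restricts vesicular stomatitis virus and is induced by interferon, had a peak of 299 bases (chr15:44729073-44729371) that lay 7157 bases from its start, with the nearest other gene end, that of B2M, 10928 bases away. Its promoter, printed above, holds GAAANNGAA and 3 AANNGAAA matches between 100 and 56 bases before the start, outside that peak. TRIM67, a neuronal member, had a peak of 299 bases inside the gene (chr1:231211406-231211704), 49348 bases from its start. TRIM35, which acts on IRF7, had a peak of 144 bases, 265 bases above the gene in coordinates and inside the span of PTK2B.

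Of the 11 members with a Smad3 peak in caSmad3 cells, 7 kept one when the 10 kb around gene ends alone counted. TRIM55, a sarcomere ligase of the muscle RING class, was the only member with Smad3 peaks in several libraries. The Smad3 peak of caSmad3 cells was 184 bases wide and lay inside the gene, 10676 bases from its nearer end, and that of mock-transfected HA cells was 100 bases wide and lay wholly within it. Such an overlap was common: 324 of all 353 Smad3 peaks of mock-transfected HA cells, or 91.8%, met a Smad3 peak of caSmad3 cells. After polyI:C in HA cells TRIM55 had no Smad3 peak, and its IRF3 peak of 172 bases in caSmad3 cells lay elsewhere, 76 bases below the gene. TRIM62, which has been described to act on Smad3 in breast epithelium, had a Smad3 peak of 139 bases in caSmad3 cells (chr1:33182112-33182250), 69 bases from its start and inside the promoter window. That place is also inside the span of ZNF362. It had no IRF3 peak within 10 kb in either cell, the nearest being 18149 bases away in caSmad3 cells and 18096 bases away in HA cells. TRIM16, a member without a RING domain that acts on damaged lysosomes, had IRF3 peaks at its upper end, 264 bases in caSmad3 cells and 174 bases in HA cells, and a Smad3 peak of 180 bases inside the gene in caSmad3 cells.

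Within caSmad3 cells the peaks of both factors overlapped near 6 of the 10 members that had both, beside 77.3% of the 2974 genes that had both. These were TRIM9, TRIM14, TRIM41, TRIM45, TRIM52 and TRIM56, and the peaks near TRIM2, TRIM16, TRIM55 and TRIM66 lay apart. Of the 12 Smad3 peaks of caSmad3 cells near members, 6 met an IRF3 peak of those cells, or 50.0% (21.1% to 78.9%), beside 31.6% of all such peaks. With an overlap of at least 50% of both peaks, 0 of the 12 did, beside 11.7% of all such peaks.

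Copies and clusters made up many of the members without peaks. Of 18 members that are near-identical recent copies, such as TRIM49, TRIM64 and their relatives, 3 had an IRF3 peak in caSmad3 cells (TRIM16, TRIM73 and TRIM74), against 1 in HA cells (TRIM16), or 16.7% and 5.56%, beside 40.5% and 23.5% of all genes. The intervals, 3.58% to 41.4% and 0.141% to 27.3%, hold the shares of all genes. The other 15 had no peak in any library, so the share with a peak in any library was also 16.7%, and its interval lies below the 46.9% of all genes. The interval takes the copies as independent, but 7 of them lie in 1 cluster on chromosome 11. That cluster is inside a stretch without an IRF3 peak, 1.89 Mb long in caSmad3 cells and 6.55 Mb long in HA cells. Values for such copies are uncertain, since reads may fall on more than 1 of them and the authors' handling of such reads is not given in the sources used here. Among the other 58 members, 26 had an IRF3 peak in caSmad3 cells, or 44.8%, against 14 in HA cells, or 24.1%, and 10 had a Smad3 peak in caSmad3 cells, or 17.2%, beside 40.5%, 23.5% and 19.9% of all genes. Chromosome 11 holds 23 members, of which 2 had an IRF3 peak in caSmad3 cells, against 1 in HA cells, and over its 1301 genes the shares were 29.4% and 14.7%. In the cluster of 7 members on chromosome 6, among them TRIM26 and TRIM39, 3 had an IRF3 peak in caSmad3 cells, against 1 in HA cells, and over all genes of that chromosome the shares were 39.7% and 24.4%. Of these 3, TRIM39 and the readthrough gene TRIM39-RPP21 counted the same peak of 161 bases at RPP21. Members were shorter than genes at large, with a median length of 17051.5 bases beside 24130 bases, and the part of length in these counts was not tested.

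The promoter windows gave smaller shares than the 10 kb windows. Among the 61 members in the promoter table, 8 had an IRF3 peak of caSmad3 cells in the 250 bases before a start (TRIM9, TRIM23, TRIM26, TRIM32, TRIM33, TRIM41, TRIM52 and TRIM66), or 13.1% (5.84% to 24.2%), beside 26.6% of the 15842 genes in the table. The share of all genes lies above that interval. Without the near-identical copies, a choice made after seeing the data, the count was 8 of 45, or 17.8% (8.0% to 32.1%), which holds the share of all genes. In HA cells 3 did (TRIM26, TRIM41 and TRIM66), or 4.92% (1.03% to 13.7%), beside 13.4%. A Smad3 peak of caSmad3 cells lay in the window of 2, TRIM9 and TRIM62, or 3.28% (0.4% to 11.3%), beside 8.14%. In HA cells 0 had a Smad3 peak there after polyI:C, beside 0.644% of genes, and 0 after mock transfection, beside 0.133%.

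The IRF core AANNGAAA was found on either strand in 17 of the 81 member windows, or 21.0%, beside 17.3% of all 22198 windows, and in 3 of the 5 antiviral windows, those of TRIM5, TRIM14 and TRIM38. GAAANNGAA was found in 10, or 12.3%, beside 6.07%, and in 2 of the 5, TRIM5 and TRIM14. GGGCGG, the core of SP factor sites, was found in 32, or 39.5%, beside 53.7%, and CCGGAAG of ETS factors in 6, or 7.41%, beside 10.7%. CAGAC of Smad factors was found in 32, or 39.5%, beside 37.2%, the palindrome GTCTAGAC in 0, beside 0.207%, and TGANTCA of AP-1 in 10, or 12.3%, beside 5.36%. GCGCATGC of NRF1 was found in 2, or 2.47%, beside 3.26%. No intervals were computed for these shares, and the windows are not independent. Some genes have several, such as TRIM2, and some windows are of near-identical copies, such as TRIM48, TRIM49B and TRIM49D1 for AP-1. Of the 8 genes with an IRF3 peak in a window, 7 held GGGCGG and 1 held GAAANNGAA, against 20 and 9 of the 53 genes without. AANNGAAA was in 2 of the 8, against 14 of the 53, and CCGGAAG in 2 of the 8, against 4 of the 53. All near-identical copies in the promoter table are among the 53. No match to either IRF motif lay wholly inside a peak of any library. A match describes letters in these windows and is not a bound site.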

How the data were processed

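ChIP-seq of IRF3 or Smad3 was made in 5 libraries of BT549 cells, 1 per group, with antibodies to each factor and an Ion fragment library kit, per the labels' protocols. Bowtie2 2.2.2.6, MACS2 2.1.0 and the build hg38 were used, per the submitters' processing notes. The sources used here give no peak threshold, input control or handling of duplicate reads. For every library the authors deposited a peak list with positions in bases and no other value, so depth is unknown and precision is set by the number of genes or peaks.

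From these, genes were counted with a peak inside or within 10 kb, over 20033 protein-coding genes of RefSeq (GRCh38.p14), which give coordinates but no strand. "Above" and "below" mean higher and lower coordinates, and start sites come from the promoter table. The count of 0 among all 76 members stands beside the share of 3 counts, while other counts of 0 do not. Peaks were shared with 1 common base. The gene counting was tested on simulated data. Python 3.11.15, numpy 2.4.6, pandas 2.3.3 and scipy 1.17.1 were used.

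Members and lists were chosen with earlier results of these data known. Named with full values were the 6 antiviral members, members with peaks in 3 libraries or a Smad3 peak in HA cells, those with IRF3 peaks in HA cells alone, and the 5 with the widest peak per library. Other members with widths (TRIM2, TRIM3, TRIM4, TRIM13, TRIM23, TRIM24, TRIM32, TRIM33, TRIM39 and TRIM62) were chosen after their values were seen. Alternatives were windows of 1 kb and 50 kb, the wider 50% of peaks, the nearest gene only, no readthrough genes and an overlap of 50%.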

Additional observations from a re-analysis of the deposited data

How the results depend on the processing

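No paired analysis was possible because each group has 1 library, and for the same reason no replicate could be left out. Of the counts over all members and of shared peaks, 51 values stayed within 1.5 times the main count and 22 moved further. With a window of 50 kb the members with a peak were 44 and 28 for IRF3 in caSmad3 and HA cells, and 26, 2 and 2 for Smad3 in caSmad3 cells, in HA cells with polyI:C and in mock-transfected HA cells. Over all genes the shares were then 57.1%, 37.6%, 33.8%, 5.24% and 2.04%. IRF3 peaks of both cells then lay near 27 members and those of HA cells alone near 1, and Smad3 peaks of any library near 26 and of several near 3. With the wider 50% of peaks these counts were 15, 8 and 5 for IRF3 in caSmad3 cells, IRF3 in HA cells and Smad3 in caSmad3 cells, and 0 for mock-transfected HA cells, with 6 for IRF3 in both cells, 9 for IRF3 in caSmad3 cells alone, 5 for Smad3 in any library and 0 in several. The first 3 are 19.7%, 10.5% and 6.58% of members, beside 26.0%, 13.3% and 11.1% of all genes. The next alternatives were chosen after seeing the data. With the 10 kb around gene ends only, Smad3 peaks lay near 7 members in caSmad3 cells (9.21%, beside 16.8% of all genes), 0 in mock-transfected HA cells, 7 in any library and 0 in several. Without near-identical copies no count moved by over 1.5 times, promoter windows included. Only 3 of the 18 copies had a peak, so these counts could hardly move. The share with an IRF3 peak of caSmad3 cells in the promoter window rose from 13.1% (5.84% to 24.2%) to 17.8% (8.0% to 32.1%). Of these intervals, only the second holds the 26.6% of all genes. With an overlap of 50% of both peaks, 0 Smad3 peaks met an IRF3 peak in caSmad3 cells. Of the antiviral counts, 27 stayed and 8 moved. With a window of 1 kb, IRF3 in caSmad3 cells and Smad3 in caSmad3 cells were left at TRIM14 only. With the 10 kb around gene ends only, TRIM14 dropped out of every library, which left 0 antiviral members for IRF3 in HA cells. Apart from these alternatives' own construction, the cause of each move was not tested. Peak widths stand in for strength only in the absence of scores, and 1 library per group leaves the spread between libraries unknown.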

Other observations

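Beside the 76 protein-coding members, 48 genes with a TRIM symbol in the annotation are not protein-coding. Of these, 7 had an IRF3 peak inside or within 10 kb in caSmad3 cells (TRIM7-AS1, TRIM7-AS2, TRIM8-DT, TRIM16L, TRIM52-AS1, TRIM59-IFT80 and TRIM64FP), against 1 in HA cells, TRIM59-IFT80. That gene, a readthrough of TRIM59 and IFT80, also had a Smad3 peak in caSmad3 cells, while TRIM59 itself had no peak within 10 kb in any library. Smad3 peaks of HA cells lay near 0 of the 48. TRIM7-AS1 and TRIM7-AS2 counted the same IRF3 peak, that of TRIM7. Peaks already counted for TRIM8 and TRIM52 lay near TRIM8-DT and TRIM52-AS1. The share over all genes that are not protein-coding was not computed, so these counts cannot be set against a background.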
